A study of Mus musculus with 3 samples.

Results

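The MHC class II genes examined here were 8 genes out of the 32285 in the count matrices: the antigen-binding chains H2-Aa, H2-Ab1 and H2-Eb1, the invariant chain Cd74, the transactivator Ciita, and the peptide-editing genes H2-DMa, H2-DMb1 and H2-Ob. They were chosen by name as class II genes with their regulator and chaperones, and all 8 were found by symbol. They were followed across classes of liver nuclei in 3 single-nuclei RNA sequencing libraries, each from 1 mouse.

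All 3 mice were male C57BL/6 J mice labelled as liver tissue. The ND mouse received a normal diet and was labelled normal. The 2 STZ-HFHC mice were injected under the skin with 0.2 mg streptozocin (STZ), which destroys pancreatic islet cells, at 3 days of age, and were fed a high-fat, high-cholesterol diet from 4 weeks of age as a model of liver fibrosis related to metabolic dysfunction-associated steatohepatitis (MASH). Injection and diet were combined in the same mice, so their effects cannot be told apart, and the age at collection of these mice is not given in the sources used here. The ND and STZ-HFHC mice carry different code prefixes in their labels, and whether these mark a batch is not stated, so any such batch cannot be told apart from the model. Nuclei came from frozen tissue, and unique molecular identifiers (UMIs) of nuclear transcripts were counted, so the levels are those of nuclear RNA and not of protein. With 1 ND mouse, ND and STZ-HFHC values were compared by size only and without a test.

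MHC class II molecules are pairs of an alpha and a beta chain that present peptides from engulfed material to CD4 T cells. Dendritic cells, B cells and macrophages are the classical carriers, and Ciita, which binds no DNA itself but is recruited by factors on a shared promoter element, switches the genes on together. Cd74 blocks the peptide groove and guides the new molecule to endosomes, where the H2-DM pair exchanges the remaining Cd74 fragment for peptide, and the H2-O pair, known mainly from B cells, restrains H2-DM. In the liver, Kupffer cells and other macrophages, dendritic cells and endothelial cells meet antigen arriving from the gut.

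Positions are given on GRCm38 (mm10) with GENCODE vM21. Ciita spans chr16:10480059-10528418 on the plus strand. The H2 genes lie within the MHC of chromosome 17: H2-DMa at chr17:34119541-34139101, H2-DMb1 at chr17:34153072-34160230, H2-Ob at chr17:34238903-34254414, H2-Ab1 at chr17:34257689-34269419 and H2-Eb1 at chr17:34305867-34316674 on the plus strand, and H2-Aa at chr17:34282744-34287823 on the minus strand.  Some neighbours share bases with these genes, and whether the counting used strand is not given in the sources used here. Ciita shares 25888 bases with Dexi on the opposite strand, H2-DMa shares 3094 bases with the start of Brd2, a chromatin reader, on the opposite strand, and H2-Eb1 shares 2204 bases with the antisense gene Gm20513. H2-DMb1 and its paralog H2-DMb2 shared 581 words of 25 bases in their transcripts, 35.1% of those of H2-DMb1, so the split of counts between these paralogs is uncertain.

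Promoter sequences were examined because class II genes are known to share a promoter element and most of the members moved together across classes. The 250 bases upstream of the RefSeq start (GRCm38.p6) were held for 5 of the 8 genes. They are written 5′ to 3′ on the gene's own strand. Capitals mark TGATTGG, which holds the core of a Y box, and AAC followed by any 2 bases and ATGATG, letters that resemble part of an X box and are called the X letters here. These letters were chosen after the windows had been looked at, and both strands were searched.
H2-Aa (chr17:34287824-34288073, minus strand): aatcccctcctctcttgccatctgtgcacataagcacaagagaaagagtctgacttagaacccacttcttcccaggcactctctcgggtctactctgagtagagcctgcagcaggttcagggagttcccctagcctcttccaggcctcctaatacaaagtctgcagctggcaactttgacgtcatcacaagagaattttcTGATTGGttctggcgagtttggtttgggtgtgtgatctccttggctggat
H2-Eb1 (chr17:34305617-34305866, plus strand): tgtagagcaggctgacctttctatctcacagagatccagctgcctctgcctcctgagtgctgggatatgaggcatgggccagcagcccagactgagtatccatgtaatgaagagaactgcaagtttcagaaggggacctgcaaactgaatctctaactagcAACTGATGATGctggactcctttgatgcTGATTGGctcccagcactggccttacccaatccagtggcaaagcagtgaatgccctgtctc
H2-DMb1 (chr17:34152941-34153190, plus strand): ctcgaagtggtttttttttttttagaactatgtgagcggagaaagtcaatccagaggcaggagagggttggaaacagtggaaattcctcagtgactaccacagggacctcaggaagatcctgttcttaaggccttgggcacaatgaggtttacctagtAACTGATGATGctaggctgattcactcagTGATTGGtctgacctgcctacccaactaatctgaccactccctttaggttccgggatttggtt
H2-Ob (chr17:34238655-34238904, plus strand): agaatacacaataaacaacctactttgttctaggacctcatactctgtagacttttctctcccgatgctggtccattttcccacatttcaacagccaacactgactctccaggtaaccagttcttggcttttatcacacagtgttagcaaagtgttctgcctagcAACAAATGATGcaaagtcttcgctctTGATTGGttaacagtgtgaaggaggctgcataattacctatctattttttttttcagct
H2-DMa (chr17:34122582-34122831, plus strand): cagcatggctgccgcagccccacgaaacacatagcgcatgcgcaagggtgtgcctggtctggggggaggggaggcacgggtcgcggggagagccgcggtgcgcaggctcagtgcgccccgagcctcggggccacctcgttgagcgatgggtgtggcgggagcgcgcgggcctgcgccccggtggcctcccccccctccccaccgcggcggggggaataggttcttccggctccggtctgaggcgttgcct

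In the H2-Eb1, H2-DMb1 and H2-Ob windows, the X letters were followed by TGATTGG on the same strand, with 28, 29 and 26 bases between their first letters. TGATTGG began 61, 63 and 59 bases before the start. In the H2-Aa window TGATTGG began 50 bases before the start, and the X letters were not found. Of 32851 promoter windows of this length, 7.23% held TGATTGG, 0.119% held the X letters and 0.0274% held both. These were 9 windows of 7 genes, 4 of them class II genes (H2-Eb1, H2-DMb1, H2-DMb2 and H2-Ob). Neither of the windows listed for H2-DMa held either motif. Both lie within the span of H2-DMa given above, and the bases before any other start of the gene were not searched. The H2-DMa window shown differs in base composition as well, with 27 CpG pairs against a median of 6 over all windows, and its first bases lie within Brd2. A match or its absence is a description of these letters only. The windows of H2-Ab1, Cd74 and Ciita were not analysed here.

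Of 30989 barcodes, 28336 nuclei passed the limits on genes and mitochondrial counts. They numbered 8494, 8921 and 10921 in the libraries of ND, STZ-HFHC 1 and STZ-HFHC 2, where the median depth was 4068, 3015 and 4027 UMIs. The class II genes were left out of the clustering and naming, so that no class was defined by them. Each class is called "-like" after its marker genes. In all 11 named classes the lowest summed level of the class's own markers in a library was 912 CPM or more, where CPM counts the UMIs of a gene per 1000000 UMIs. In 3 of the 11 classes the class's markers were not fully separated from the others. The endothelial list reached 2272 CPM in B cell-like nuclei against 2122 in the lowest endothelial-like library. Hepatocyte markers reached 19194 CPM in T or NK cell-like nuclei, against 16900 in the lowest hepatocyte-like library. The cholangiocyte list was at most 2805 CPM in mesothelial-like nuclei, against 2803 CPM in the lowest cholangiocyte-like library. Unnamed nuclei made up 9.92% of the ND library, 25% of STZ-HFHC 1 and 18.1% of STZ-HFHC 2. Libraries shared 29 to 32 barcodes in pairs.

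Dendritic-like nuclei numbered 45, 202 and 218 in ND, STZ-HFHC 1 and STZ-HFHC 2, at median depths of 1563, 1677.5 and 1468 UMIs. B cell-like nuclei numbered 131, 82 and 181, and macrophage-like nuclei 179, 1164 and 657. Monocyte-like (0, 232 and 133) and plasmacytoid dendritic-like nuclei (0, 86 and 137) were named in the STZ-HFHC mice only. A cluster of 34 ND immune nuclei raised 6 of 7 plasmacytoid dendritic markers and also 6 of 12 endothelial markers, and stayed unnamed as mixed. The plasmacytoid count of 0 in ND is thus an outcome of the naming and does not show absence. The ND dendritic-like cluster rested on few nuclei, raised 8 of 11 dendritic markers and also 5 of 11 monocyte markers. Levels below are CPM, the UMIs of a gene over all UMIs of the class in that library. Hepatocyte-like nuclei, with 4738, 2945 and 4748 nuclei, gave the reference level, called background here, since hepatocytes are not professional antigen-presenting cells. Whether their class II UMIs were free RNA was not tested.

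H2-Aa, the alpha chain of the I-A molecule, had levels of 260.9, 372 and 170.4 CPM in dendritic-like nuclei of the ND mouse, STZ-HFHC 1 and STZ-HFHC 2, from 30, 154 and 67 UMIs. In B cell-like nuclei it stood at 14.8, 155 and 44.9 CPM, and in macrophage-like nuclei at 15.04, 92.6 and 35.4 CPM. Hepatocyte-like nuclei held 1.63, 7.24 and 3.51 CPM. Every dendritic-like library was above every library of the other named classes, and the ranges of B cell-like, monocyte-like and macrophage-like nuclei overlapped.

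H2-Ab1, the beta chain of I-A, followed the same order, with 87.0, 229.7 and 106.8 CPM in dendritic-like nuclei of ND, STZ-HFHC 1 and STZ-HFHC 2. The next class, B cell-like, held 25.8, 51.6 and 51.8 CPM, and did not overlap it. In macrophage-like nuclei the values were 5.01, 45.7 and 24.1 CPM, the first of them from 2 UMIs.

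H2-Eb1, the beta chain of the I-E molecule, stood at 234.8, 324 and 175.5 CPM in dendritic-like nuclei. It is transcribed in C57BL/6 mice although the alpha chain of I-E is not made in this strain. The next 3 classes by mean, monocyte-like (46.4 and 62.2 CPM in the STZ-HFHC mice), B cell-like (11.1, 120.5 and 27.6 CPM) and macrophage-like (15.04, 63.8 and 30.6 CPM), overlapped one another but not dendritic-like nuclei.

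Cd74, the invariant chain, encoded on chromosome 18, stood at 269.6, 599.7 and 239 CPM in dendritic-like nuclei, from 31, 248 and 94 UMIs. B cell-like nuclei held 71.9, 353 and 100.1 CPM, so that the STZ-HFHC 1 B cell-like level exceeded the ND and STZ-HFHC 2 dendritic-like levels and the classes overlapped across mice. Within each mouse the dendritic-like level was the higher one. Macrophage-like nuclei held 47.6, 148 and 77.2 CPM, and monocyte-like nuclei 133 and 154 CPM in the STZ-HFHC mice.

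Ciita, the transactivator, was the member whose dendritic-like level stood farthest above the background in the fitted contrast. It stood at 226, 358 and 338 CPM in dendritic-like nuclei, against 1.15, 2.66 and 2.94 CPM in hepatocyte-like nuclei, a ratio of 115 to 197 in a library. Monocyte-like nuclei held 57.4 and 76.8 CPM, B cell-like nuclei 22.1, 68.9 and 72.5 CPM, and macrophage-like nuclei 20.1, 79.1 and 49.9 CPM. These last 3 classes overlapped, and no library of theirs reached the dendritic-like range. Dexi, which overlaps Ciita on the other strand, did not share this pattern, with 69.6, 41.1 and 48.3 CPM in dendritic-like and 47.1, 31.6 and 45.3 CPM in hepatocyte-like nuclei.

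H2-DMb1, a beta chain of the peptide exchanger H2-DM, was highest by mean in B cell-like nuclei, with 9.22, 103 and 48.3 CPM, followed by dendritic-like nuclei with 69.6, 43.5 and 30.5 CPM. Their ranges overlapped, and the order differed between mice: the ND library was higher in dendritic-like and both STZ-HFHC libraries in B cell-like nuclei. Counts were small, 5, 12 and 14 UMIs in B cell-like and 8, 18 and 12 in dendritic-like nuclei. Macrophage-like nuclei (10.0, 25.4 and 16.9 CPM) did not overlap the dendritic-like range.

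H2-DMa, the alpha chain of the same exchanger, differed less between classes than the other members. It stood at 17.4, 24.2 and 12.7 CPM in dendritic-like, 12.5, 18.2 and 19.3 CPM in macrophage-like and 8.39, 11.8 and 7.97 CPM in hepatocyte-like nuclei. In a library, its ratio to hepatocyte-like nuclei was 1.60 to 2.07 in dendritic-like and 1.49 to 2.42 in macrophage-like nuclei. It was 1.87 to 2.30 in monocyte-like, 0.66 to 1.46 in B cell-like and 0.62 to 0.83 in T or NK cell-like nuclei. All neighbouring classes in its order overlapped, from monocyte-like nuclei (mean 20.2 CPM) down to T or NK cell-like nuclei (mean 6.78 CPM). Hepatocyte-like nuclei held 52.6%, 52.8% and 57.8% of all H2-DMa UMIs in the 3 mice, beside 53.0%, 58.5% and 63.0% of the UMIs of all genes. Brd2, which overlaps the start of H2-DMa on the other strand, stood at 81.6, 84.5 and 72.8 CPM in hepatocyte-like and 17.4, 62.9 and 53.4 CPM in dendritic-like nuclei, and whether its reads were counted for H2-DMa was not tested.

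H2-Ob, the beta chain of the H2-DM inhibitor H2-O, was highest in B cell-like nuclei, at 57.2, 25.8 and 41.4 CPM from 31, 3 and 12 UMIs. Dendritic-like nuclei followed at 34.8, 12.1 and 25.4 CPM, and the ranges overlapped although the B cell-like level was higher in each mouse. Both stood above T or NK cell-like nuclei, the next class (mean 6.36 CPM), and macrophage-like nuclei held 5.01, 2.11 and 4.02 CPM. The background was 0.265, 0.462 and 0.571 CPM.

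**Figure D1:**
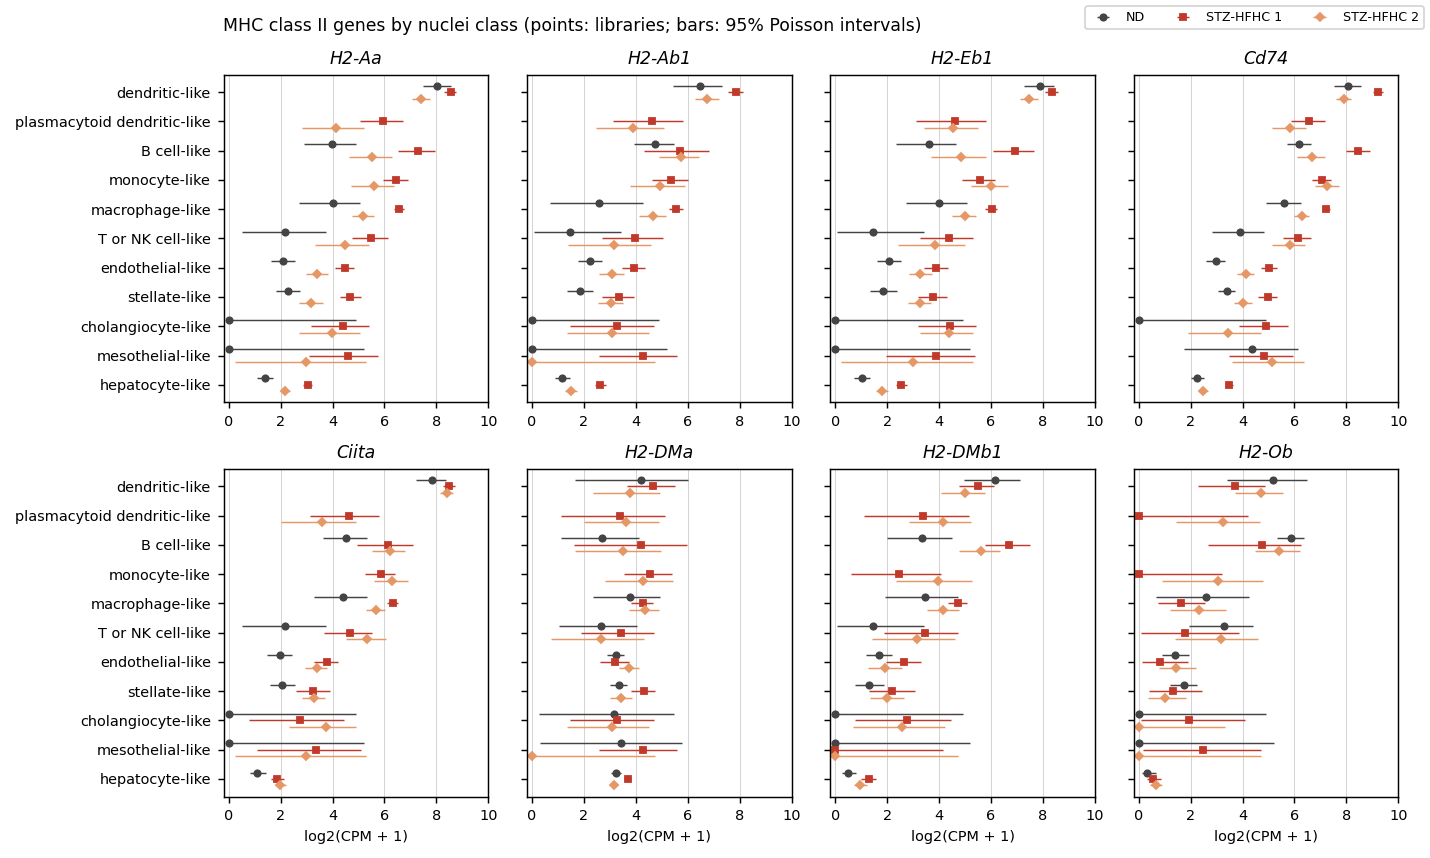
Level of each of the 8 class II genes as log2(CPM + 1) by nuclei class, with 1 point per library (ND, STZ-HFHC 1, STZ-HFHC 2) and bars for the 95% Poisson interval of the count. Dendritic-like nuclei hold the highest points for H2-Aa, H2-Ab1, H2-Eb1 and Ciita, B cell-like nuclei lead by mean for H2-DMb1 and H2-Ob, and H2-DMa lies between 5.23 and 24.2 CPM in every library and class except the mesothelial-like nuclei of STZ-HFHC 2, where its count was 0.

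To test the class differences, UMIs were summed per library and class (31 sums) and fitted with edgeR's quasi-likelihood test with the mouse as a block, with Benjamini-Hochberg adjustment over 9635 genes. H2-DMa, with 1423 UMIs in all against 240 of H2-Ob, was removed by the filter on low counts, so that 7 members were tested. The filter works on levels in single sums, so a gene could pass through the classes where it was high. Against hepatocyte-like nuclei, all 7 were higher in dendritic-like nuclei (20.5% of all tested genes were called higher), in B cell-like nuclei (13.9%), in macrophage-like nuclei (24.9%) and in plasmacytoid dendritic-like nuclei (12.3%), and 6 were higher in monocyte-like nuclei (20.4%), all but H2-Ob (2.65 ± 1.32, edgeR adjusted p = 0.113). No member was lower in any contrast fitted, where 1.18% to 27.8% of all genes were. In plasmacytoid dendritic-like nuclei 2 passed without the mouse as a block, and 2 when STZ-HFHC 2 was left out. The median log2 difference of the 7 members was 5.67 in dendritic-like, 4.37 in B cell-like, 3.58 in macrophage-like, 3.48 in monocyte-like and 2.62 in plasmacytoid dendritic-like nuclei, against −0.11 to −0.09 over all genes. DESeq2, an alternative test, kept all 8 members. Against hepatocyte-like nuclei it called 7 of 8 higher in dendritic-like and in B cell-like nuclei, and 8 of 8 in macrophage-like nuclei. In these contrasts it called 4306 of 18054, 2531 of 17278 and 6295 of 17666 genes in either direction.

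In dendritic-like nuclei the log2 difference from hepatocyte-like nuclei was 6.88 ± 0.26 (SE) for Ciita, with an edgeR adjusted p of 1.35e-18. It was 6.29 ± 0.32 for H2-Eb1, 5.82 ± 0.30 for H2-Aa, 5.67 ± 0.26 for Cd74 and 5.51 ± 0.27 for H2-Ab1. H2-Ob (5.34 ± 0.59) and H2-DMb1 (5.26 ± 0.49) had the widest errors. In B cell-like nuclei the order differed, from 6.28 ± 0.49 for H2-Ob and 5.31 ± 0.51 for H2-DMb1 to 3.72 ± 0.49 for H2-Eb1 and 3.63 ± 0.42 for H2-Aa. In macrophage-like nuclei Ciita was again first (4.30 ± 0.25) and H2-Ob last (2.69 ± 0.62).

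The antigen-presenting classes were then compared with each other. In dendritic-like against B cell-like nuclei 5 of the 7 members were higher, where 3.81% of all genes were called higher: H2-Eb1 by 2.57 ± 0.39, Ciita by 2.51 ± 0.29, H2-Aa by 2.18 ± 0.35, H2-Ab1 by 1.45 ± 0.32 and Cd74 by 1.23 ± 0.27 on the log2 scale (edgeR adjusted p from 6.26e-07 to 0.00356). H2-DMb1 (−0.05 ± 0.48, adjusted p = 0.999) and H2-Ob (−0.95 ± 0.52, adjusted p = 0.418) did not pass the test. The count was 1 without the mouse as a block, and 3 without STZ-HFHC 2.

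Against macrophage-like nuclei 6 of the 7 members were higher in dendritic-like nuclei (4.50% of all genes), led by H2-Eb1 (2.71 ± 0.32), H2-Ob (2.64 ± 0.62) and Ciita (2.58 ± 0.24), while H2-DMb1 gave 1.2 ± 0.47 (edgeR adjusted p = 0.133). Without the block 2 passed. Between B cell-like and macrophage-like nuclei only H2-Ob passed the test, with a log2 difference of 3.59 ± 0.55 and an adjusted p of 2.61e-05, where 3.83% of all genes were called higher. The count was 2 when the ND mouse was left out. The other 6 differed by 0.07 to 1.25 on the log2 scale (edgeR adjusted p from 0.0718 to 0.991). None of the 7 passed the test between monocyte-like and macrophage-like nuclei (5.38% of all genes called higher). There the smallest unadjusted p was 0.0729, so 0 members lay under 0.05, and DESeq2 called 0. At clustering resolution 2, where a cluster led by Clec4e and Slc7a11 was also named monocyte-like, the count was 3.

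Smaller differences were fitted outside the antigen-presenting classes. All 7 members were higher than in hepatocyte-like nuclei in endothelial-like nuclei (18.2% of all genes), by 1.28 to 1.80 on the log2 scale, in stellate-like nuclei (24.7%), by 1.30 to 1.71, and in T or NK cell-like nuclei (17%), by 1.39 to 3.58. These calls depended on the block: without it 0, 0 and 3 of the 7 passed. When STZ-HFHC 1 was left out, 4 passed in endothelial-like and 3 in T or NK cell-like nuclei. H2-Aa stood at 3.29, 21.3 and 9.70 CPM in endothelial-like, 3.91, 24.8 and 8.02 CPM in stellate-like and 3.49, 44.2 and 21.1 CPM in T or NK cell-like nuclei, so that each mouse's value stood above its own hepatocyte-like level while the ranges over mice overlapped. Summed macrophage markers were also higher in these classes than in hepatocyte-like nuclei. The 17 markers summed to 861 to 1462 CPM in endothelial-like, 663 to 936 in stellate-like and 373 to 1449 in T or NK cell-like libraries, against 311 to 359 in hepatocyte-like and 3201 to 6433 in macrophage-like ones. All 17 were detected in each endothelial-like and stellate-like library. The 11 dendritic markers summed to 161 to 347 CPM in endothelial-like and 121 to 185 in stellate-like nuclei, against 44.0 to 45.7 in hepatocyte-like nuclei. The part of the macrophage and dendritic markers in the result was not tested.

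Cholangiocyte-like and mesothelial-like nuclei gave little. H2-Eb1 passed in cholangiocyte-like nuclei (2.34 ± 0.59, edgeR adjusted p = 0.00421) and Cd74 in mesothelial-like nuclei (1.96 ± 0.57, adjusted p = 0.00957), 1 of 7 members each, where 14.6% and 15.4% of all genes were called higher. H2-Eb1 stood at 0, 20.1 and 19.8 CPM in cholangiocyte-like nuclei, with 0, 7 and 8 UMIs. Without the block neither was called, and leaving out 1 mouse at a time gave 0 to 2 calls in cholangiocyte-like and 0 to 1 in mesothelial-like nuclei. With 32 cholangiocyte-like and 35 mesothelial-like nuclei in ND, a count of 0 there allows up to 23.6 and 29.2 CPM, so lower levels were not detectable.

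Shares of nuclei with a UMI were compared after each nucleus was thinned to 1000 UMIs. At least 1 UMI of any of the 8 genes was present in 63.9% (95% exact binomial interval 46.2 to 79.2), 77.0% (70.0 to 83.0) and 59.4% (51.6 to 66.9) of dendritic-like nuclei in ND, STZ-HFHC 1 and STZ-HFHC 2, counted over 36, 174 and 170 nuclei. The shares were 38.5%, 52.3% and 34.7% in B cell-like nuclei, 13.2%, 34.9% and 17.4% in macrophage-like nuclei and 2.06%, 4.62% and 2.54% in hepatocyte-like nuclei, the background. Dendritic-like nuclei were above B cell-like nuclei in each mouse, although the ND dendritic-like interval reached down to 46.2% and the ND B cell-like interval up to 49.0%. At full depth the means over mice were 81.1% in dendritic-like and 18.5% in hepatocyte-like nuclei, at median depths of 1468 to 1677.5 and 4060 to 7937 UMIs.

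Nuclei with UMIs of at least 2 different members were counted as well, and made up 38.9%, 44.8% and 27.6% of dendritic-like, 10.4%, 20% and 4.76% of B cell-like and 2.48%, 8.0% and 3.10% of macrophage-like nuclei. In hepatocyte-like nuclei they were 4 of 4519, 3 of 2923 and 0 of 4721, and in endothelial-like nuclei 2 of 1074, 4 of 786 and 4 of 1015. H2-Ob had a UMI in 9 of 96, 3 of 65 and 4 of 147 B cell-like nuclei, and in 0 of 121, 0 of 1012 and 1 of 580 macrophage-like nuclei, where a count of 0 allows a share of up to 2.48% and 0.296%. These limits concern nuclei with a UMI at 1000 UMIs and not nuclei expressing H2-Ob, of which macrophage-like nuclei held 2, 5 and 5 UMIs at full depth. Intervals and limits cover counting error only.

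**Figure D2:**
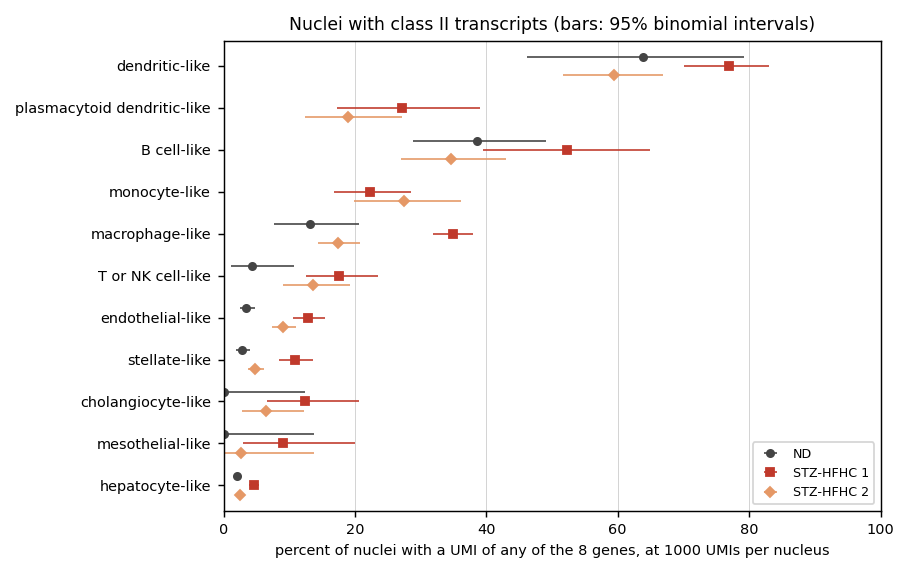
Percent of nuclei with at least 1 UMI of any of the 8 genes by class and library, after thinning each nucleus to 1000 UMIs, with 95% binomial intervals. Dendritic-like nuclei lie between 59.4% and 77.0%, B cell-like nuclei between 34.7% and 52.3% and hepatocyte-like nuclei between 2.06% and 4.62%.

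The counts of the regulator were also set against those of its targets within each class. Per 100 UMIs of H2-Aa, H2-Ab1, H2-Eb1 and Cd74 together, Ciita had 26.5, 23.5 and 48.9 UMIs in dendritic-like nuclei of ND, STZ-HFHC 1 and STZ-HFHC 2, 17.9, 10.1 and 32.3 in B cell-like nuclei and 24.2, 22.6 and 29.8 in macrophage-like nuclei. In hepatocyte-like nuclei it had 14.9, 9.68 and 23.8. The dendritic-like ratio was 1.78 (0.991 to 3.18), 2.42 (1.81 to 3.27) and 2.06 (1.58 to 2.69) times the hepatocyte-like one, above it beyond counting error in both STZ-HFHC mice. In endothelial-like nuclei Ciita had 16.9, 15.7 and 22.4 UMIs per 100, close to the hepatocyte-like values in ND and STZ-HFHC 2. H2-DMa went the other way, with 2.04, 1.58 and 1.84 UMIs per 100 in dendritic-like nuclei against 109, 42.9 and 64.4 in hepatocyte-like nuclei. Its hepatocyte-like count was not in the proportion seen in dendritic-like nuclei.

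The next question was whether the members differed between the STZ-HFHC mice and the ND mouse. Over all nuclei, 6 of the 8 genes were at least 2-fold higher in both STZ-HFHC mice, the size used as a call here, where 13.6% of 16829 genes were. The levels were 3.65, 28.7 and 10.3 CPM for H2-Aa and 7.87, 46.7 and 17.3 CPM for Cd74, in the order ND, STZ-HFHC 1, STZ-HFHC 2. The ratios to ND were 7.87 and 2.82 for H2-Aa, 6.68 and 2.69 for H2-Ab1, 8.13 and 3.47 for H2-Eb1, 5.94 and 2.20 for Cd74, 6.70 and 4.14 for Ciita and 4.18 and 2.70 for H2-DMb1. STZ-HFHC 1 was above STZ-HFHC 2 for each of these 6 genes. H2-DMa (1.54 and 1.03) and H2-Ob (0.698 and 0.979) did not reach the size. The median log2 ratio was 1.97 over the 8 members and 0.18 over all genes. Without the unnamed nuclei, an alternative added after the data had been seen, 3 of the 8 reached the size. The share of all genes reaching it in that alternative is not given here, so this count has no background beside it. Over all nuclei, more nuclei of a class and more RNA per nucleus cannot be told apart.

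The classes were therefore compared one by one. In dendritic-like nuclei 0 of the 5 members with at least 50 UMIs reached the size, where 8.94% of 4003 genes did. The ratios to ND were 1.43 (0.961 to 2.19) and 0.653 (0.419 to 1.04) for H2-Aa, 1.38 and 0.748 for H2-Eb1, and 2.22 (1.53 to 3.34) and 0.887 (0.586 to 1.38) for Cd74 in STZ-HFHC 1 and STZ-HFHC 2. The STZ-HFHC mice thus lay on either side of the ND mouse for these genes. H2-Ab1 (2.64 and 1.23) and Ciita (1.58 and 1.5) were above ND in both mice. When STZ-HFHC 2 was left out 2 members reached the size. Intervals cover counting error only, and the ND side rests on 45 nuclei.

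In macrophage-like nuclei 3 of 7 members reached the size (14.8% of 8381 genes): H2-Aa, with ratios of 6.16 (2.78 to 16.96) and 2.35 (0.999 to 6.76), H2-Ab1, with 9.11 (2.46 to 76.2) and 4.81 (1.22 to 41.6), and Ciita, with 3.94 (1.96 to 9.27) and 2.49 (1.19 to 6.01). H2-Eb1 (4.25 and 2.03), Cd74 (3.12 and 1.62) and H2-DMb1 (2.53 and 1.68) were above ND in both mice without reaching the size, which was judged with 0.5 added to each count. The ND values rested on 6 UMIs of H2-Aa, 2 of H2-Ab1 and 8 of Ciita. The median log2 ratio was 1.45 over these 7 members and 0.14 over all genes. The macrophage-like class was made of different subclusters in the groups, 0 and 2 in ND, led by Itga9 and Mertk and by Clec4f and Timd4, and 9, 10 and 13 in STZ-HFHC, led by Clec4f, by Pcolce2 and Gfra2, and by Atp6v0d2, Gpnmb and Mmp12. When STZ-HFHC 1 was left out 2 members reached the size, and when STZ-HFHC 2 was left out 6 did.

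B cell-like nuclei had too few UMIs for the size call in all members but Cd74, which stood at 71.9, 353 and 100.1 CPM with ratios of 4.90 (3.09 to 7.81) and 1.39 (0.830 to 2.31), so 0 of 1 reached it (11.6% of 3874 genes). H2-Ob was below ND in both mice, at ratios of 0.451 (0.0883 to 1.45) and 0.724 (0.339 to 1.45), and the other 7 were above it. The B cell markers of this class ranged from 1830 to 6153 CPM over the libraries. Median depths were 1933, 1353.5 and 1371 UMIs in ND, STZ-HFHC 1 and STZ-HFHC 2. The part of these differences in the ratios was not tested. B cell-like nuclei held 38.8% of the H2-Ob UMIs of the ND mouse, against 5.17% and 11.8% in the STZ-HFHC mice.

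The same direction was seen in classes outside the antigen-presenting ones. In endothelial-like nuclei 5 of 6 members reached the size (8.25% of 11708 genes), with H2-Aa at ratios of 6.46 (3.95 to 10.9) and 2.94 (1.73 to 5.12). H2-DMa gave 0.982 and 1.48 there. The ND side of this class was cluster 2, which raised 4 of 12 endothelial and 2 of 11 hepatocyte markers and had Serpina1e and Bhmt, genes of hepatocytes, among its top 10 genes. Endothelial-like nuclei summed to 2122, 5019 and 3204 CPM of endothelial markers and 18095, 11140 and 15337 CPM of hepatocyte markers in ND, STZ-HFHC 1 and STZ-HFHC 2, at median depths of 5302.5, 1753 and 1968 UMIs, and the part of these differences in the ratios was not tested. In stellate-like nuclei 4 of 6 reached the size (11.3% of 11818 genes). The ND side was mostly cluster 3, which raised 4 of 10 stellate markers. Those markers ranged from 1831 to 6737 CPM over the libraries of the class. Its median depths were 4679, 2214.5 and 2241 UMIs, and the part of these differences was not tested. In T or NK cell-like nuclei Cd74, the 1 member with enough UMIs, reached the size at 4.93 and 3.97 (15% of 4977 genes). The T cell markers of that class moved the same way, at 912, 4201 and 2874 CPM, with hepatocyte markers at 19194, 10012 and 14416 CPM and median depths of 3172, 1230 and 1323 UMIs, and their part in the Cd74 ratios was not tested. Hepatocyte-like nuclei, taken as background, were higher as well: 4 of 7 reached the size (8.73% of 14754 genes), and H2-Aa was 4.44 (3.11 to 6.49) and 2.15 (1.48 to 3.20) times its ND level. In cholangiocyte-like nuclei (9.09% of 3742 genes) and mesothelial-like nuclei (7.47% of 2208 genes) 0 of the 8 genes had enough UMIs. In all, 17 calls of the size were made over the named classes, and 9 when each mouse's hepatocyte-like level was subtracted first. Hepatocyte-like nuclei, with 4 of the 17 calls, could not be compared after that subtraction. Endothelial-like, stellate-like and hepatocyte-like nuclei also came mostly from different clusters in the groups, 2, 3, and 0 and 1 in ND, and 6 and 7, 10, and 19 to 21 in STZ-HFHC. Stellate-like cluster 10 also held 145 ND nuclei, and hepatocyte-like cluster 17 held 30 ND nuclei and 24 and 44 of the STZ-HFHC mice.

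**Figure D3:**
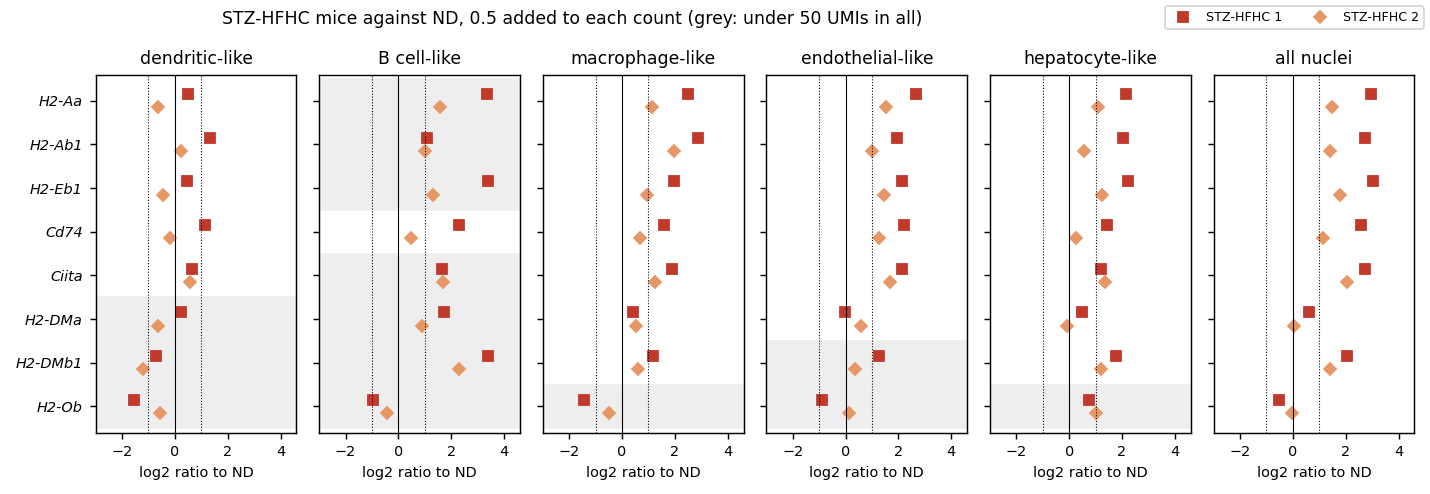
Log2 ratio of each STZ-HFHC mouse to the ND mouse for the 8 genes in 5 classes and over all nuclei, with 0.5 added to each count, dotted lines at a 2-fold difference and grey rows for genes with fewer than 50 UMIs over the 3 libraries. In dendritic-like nuclei the STZ-HFHC mice lie on either side of 0 for H2-Aa, H2-Eb1 and Cd74, whereas over all nuclei 6 genes lie beyond the dotted line in both mice.

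The UMIs of a member were also followed across classes. Dendritic-like nuclei held 0.269%, 0.932% and 0.707% of all UMIs in ND, STZ-HFHC 1 and STZ-HFHC 2 but 19.2%, 12.1% and 11.7% of H2-Aa and 20.2%, 16.5% and 19.1% of Ciita. Macrophage-like nuclei held 3.85%, 17.2% and 7.69% of the H2-Aa UMIs. Unnamed nuclei held 14.1% of H2-Aa UMIs in ND and 39.8% and 38.5% in the STZ-HFHC mice, where they held 20.8% and 16.4% of all UMIs. In the unnamed nuclei 7 of 8 members reached the size (20.8% of 13210 genes), with ratios for H2-Aa of 10.0 and 4.4. These ratios set different clusters against each other. Of the 843 unnamed ND nuclei 684 were of cluster 8, which held 0 and 2 nuclei of the STZ-HFHC mice. Its best marker list was that of hepatocytes, with too few markers raised for a name. The largest unnamed source in the STZ-HFHC mice was cluster 12, whose raised markers were of endothelial cells and of macrophages together, and which held 0.641%, 17.6% and 19.6% of H2-Aa UMIs. That cluster had 38 nuclei in ND and 740 and 848 in the STZ-HFHC mice.

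**Figure D4:**
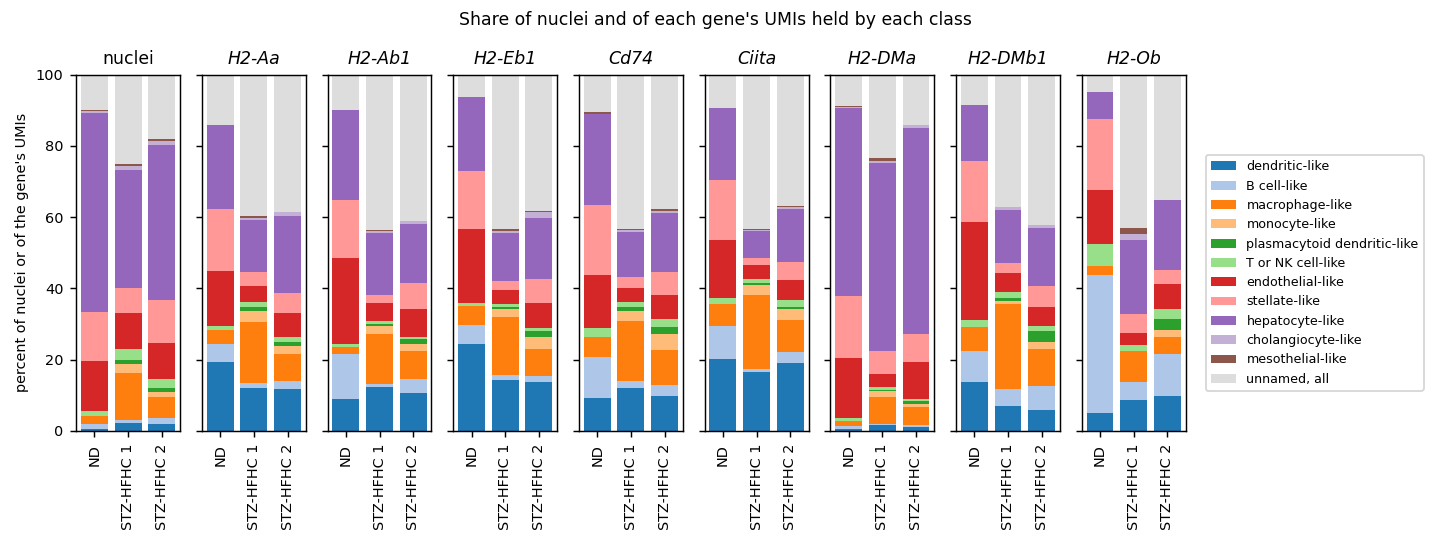
Stacked percent of nuclei (first panel) and of the UMIs of each gene (other panels) held by each class in each library. Unnamed nuclei, in grey, hold 39.8% and 38.5% of H2-Aa UMIs in the STZ-HFHC mice, and hepatocyte-like nuclei hold 52.6% to 57.8% of H2-DMa UMIs.

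The immune nuclei of the STZ-HFHC mice were divided into subclusters, and 2 of these are described because their class II values stood apart, so they were chosen after the values had been seen. The intervals of their ratios describe counting error and cannot test a difference. Subclusters 14, 17 and 18 made up the dendritic-like class. Subcluster 18 carried Clec9a (409 and 259 CPM in STZ-HFHC 1 and STZ-HFHC 2), Xcr1 (91.7 and 31.4 CPM) and Irf8 (621 and 645 CPM), genes of type 1 conventional dendritic cells, and subcluster 14 carried Cd209a (51.4 and 46.4 CPM) and Clec10a (79.4 and 46.4 CPM), genes of type 2 cells. Subcluster 17, with 29 and 22 nuclei, carried Ccr7 (138 and 99.4 CPM), Cd83 (848 and 557 CPM) and Relb (536 and 338 CPM), genes known from activated, migrating dendritic cells.

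Ciita stood at 406 and 353 CPM in subcluster 14, 388 and 448 CPM in subcluster 18, and 104 and 0 CPM in subcluster 17. Subcluster 17 thus held 6 and 0 Ciita UMIs. The ratio to the other dendritic-like subclusters was 0.260 (0.0939 to 0.580) in STZ-HFHC 1. With 0 UMIs in STZ-HFHC 2, the interval of the ratio reached up to 0.192 there. H2-Eb1 stood at 311 and 219 CPM, with ratios of 0.955 (0.547 to 1.58) and 1.29 (0.612 to 2.49). H2-Aa gave 346 and 79.5 CPM, with ratios of 0.919 (0.544 to 1.48) and 0.433 (0.114 to 1.16). Cd74 gave ratios of 0.540 (0.324 to 0.854) and 0.634 (0.265 to 1.31), and H2-Ab1 gave 0.566 (0.237 to 1.17) and 0.341 (0.0399 to 1.31). Since subcluster 17 was chosen with these values known, no difference is concluded from the intervals. The difference between the ratio of Ciita and those of its targets was not tested.

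Subcluster 11, with 230 and 126 nuclei, was left unnamed because genes of another class were among its leading genes. It was led by Clec4e, Slc7a11, Itgam, Ptafr and F13a1, of which Itgam and F13a1 were on the monocyte list used for naming. It carried Gpnmb (555.5 and 418 CPM), a gene of lipid-laden macrophages, with Flt3, a dendritic marker, at 6.22 and 0 CPM. H2-Aa stood at 257 and 142 CPM and Ciita at 219.7 and 268 CPM. In monocyte-like nuclei of the same mice H2-Aa stood at 86.2 and 47.6 CPM and Ciita at 57.4 and 76.8 CPM. Against macrophage-like nuclei the ratios were 2.78 (2.21 to 3.48) and 4.02 (2.49 to 6.44) for H2-Aa, 3.38 (2.60 to 4.36) and 6.02 (3.81 to 9.56) for H2-Eb1, and 2.78 (2.17 to 3.55) and 5.37 (3.73 to 7.74) for Ciita. Against dendritic-like nuclei they were 0.690 and 0.835 for H2-Aa, 0.614 and 0.792 for Ciita, 0.750 and 0.823 for Cd74, 0.665 and 1.05 for H2-Eb1 and 0.848 and 1.14 for H2-Ab1. The levels of H2-Aa, Ciita and Cd74 thus lay between those of the macrophage-like and dendritic-like classes in both mice, and those of H2-Eb1 and H2-Ab1 in STZ-HFHC 1. Its H2-DMa (20.7 and 12.6 CPM) and H2-Ob (2.07 and 0 CPM) levels stood beside 18.2 and 19.3 CPM of H2-DMa and 2.11 and 4.02 CPM of H2-Ob in macrophage-like nuclei. The macrophage-like subclusters 9, 10 and 13 held H2-Aa at 120.3 and 26.4, 83.7 and 32.3, and 95.8 and 49.4 CPM. Subcluster 13 was above subcluster 10 in both mice, and subcluster 9 was the highest of the 3 in STZ-HFHC 1 and the lowest in STZ-HFHC 2.

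**Figure D5:**
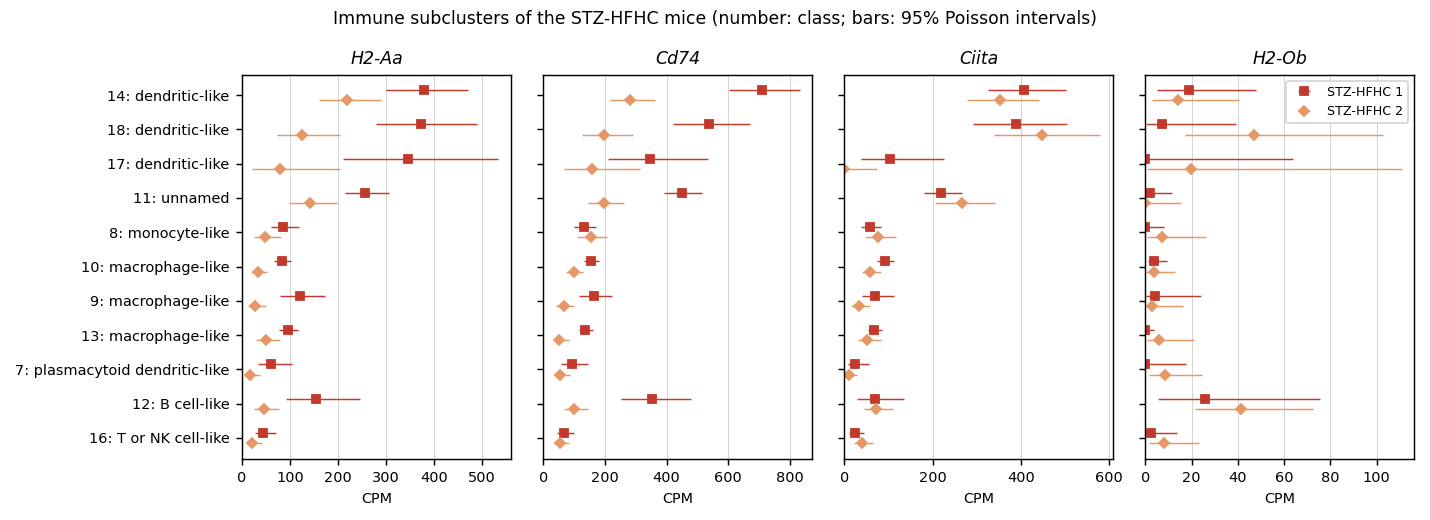
Level in CPM of H2-Aa, Cd74, Ciita and H2-Ob in the named immune subclusters of the STZ-HFHC mice and in the unnamed subcluster 11, with 1 point per mouse and 95% Poisson intervals. Subcluster 17 stands at 104 and 0 CPM for Ciita while the other dendritic-like subclusters lie between 353 and 448, and subcluster 11 lies above the macrophage-like subclusters for H2-Aa, Cd74 and Ciita.

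One cluster of hepatocyte-like nuclei was led by interferon-stimulated genes such as Rsad2, Ifit1 and Cxcl10, with 30, 24 and 44 nuclei in ND, STZ-HFHC 1 and STZ-HFHC 2. Interferon gamma is the known inducer of Ciita outside professional antigen-presenting cells, so the members were read there. Nlrc5, the class I counterpart of Ciita, stood at 323, 523 and 489 CPM and B2m, the light chain of class I, at 249, 308 and 346 CPM. H2-Aa stood at 0, 5.13 and 6.18 CPM and Ciita at 0, 10.3 and 9.28 CPM, from at most 3 UMIs in a mouse. At this depth no class II difference from the other hepatocyte-like nuclei was detectable.

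The genes whose levels ran most like those of the members were sought among 15366 genes outside them over the same 31 sums. For the mean of H2-Aa, H2-Ab1, H2-Eb1 and Cd74, Pearson's r of log2(CPM + 1) was 0.93 for March1, a ubiquitin ligase that removes class II from the surface, 0.92 for Wdfy4, needed for cross-presentation, and 0.91 for Ly86. Slc9a7, Plcg2, Cd180, Pkib, Rassf4, Ifi209 and Plekhm3 followed, down to 0.89. For Ciita they were Wdfy4 (0.94), March1 (0.92), Rassf4 (0.90), Plcg2 (0.90) and Gm26740 (0.89). For H2-Ob they were Tbc1d10c (0.76), Pax5 (0.75), St8sia6 (0.75), Ebf1 (0.74) and B3gnt5 (0.74). Wdfy4, Pax5 and Ebf1 were among the markers that named the dendritic-like and B cell-like classes. Among the members, Ciita ran with H2-Eb1 at 0.96 and H2-Aa at 0.95, with H2-Ob at 0.64 and with H2-DMa at 0.42. The sums come from 3 mice and share library and depth, so these values are a description.

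Other genes of the pathway took part in the clustering, so their class differences are described by counts. In dendritic-like against hepatocyte-like nuclei, where 20.5% of all genes were called higher, 9 of 10 tested genes of class II transcription were past the edgeR threshold and higher, among them Irf8 (6.04 on the log2 scale) and Spi1 (5.06), factors of myeloid cells, Ifngr1 (2.95) and Ifngr2 (2.78), the chains of the interferon gamma receptor, and Nfya (1.08), a subunit that binds the Y box. Of 9 genes of antigen processing and class II turnover, 5 were higher, led by March1 (4.83) and Ctss (4.14), the protease that trims Cd74, and 1, March8 (−0.997), was lower. Of 6 costimulation genes 5 were higher, led by Icosl (5.43) and Cd40 (4.93), and all 8 class I genes were higher, from 0.68 for Nlrc5 to 2.76 for Psmb9. H2-DMb2 was higher by 4.93. Irf8 and Pax5 were themselves among the markers that named classes. The list medians ran from 1.07 to 4.93, against −0.10 over all genes.

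Against macrophage-like nuclei 2 endosomal proteases went the other way from the members. Ctsb (−2.25) and Lgmn (−2.31) were lower in dendritic-like nuclei, 2 of 9 genes of processing and turnover, where 5% of all genes were called lower. Of these 9 genes 0 were higher, while Icosl (4.08), Cd40 (1.35), Tap2 (1.29) and Nlrc5 (0.84) were higher (4.50% of all genes). B cell-like nuclei differed from macrophage-like ones by lower Ctss (−1.77), Ctsb (−2.35), Lgmn (−2.49), Ifi30 (−1.73), Cd80 (−1.79) and Cd86 (−2.12) and by higher H2-DMb2 (2.48), Icosl (3.63) and Cd40 (1.33). Between these classes 7.85% of all genes were called lower and 3.83% higher. In macrophage-like nuclei of the STZ-HFHC mice against ND, the rule of size, which called 14.8% of all genes higher there, called 3 of 10 transcription genes higher (Irf1, Irf8 and Spi1), 4 of 9 genes of processing and turnover (Ctss, Ctsb, Lgmn and March1), 1 of 4 costimulation genes (Cd274) and 2 of 7 class I genes (Tap1 and Tapbp). In dendritic-like nuclei, where it called 8.94% of all genes higher, it called Ctsb and Lgmn, 2 of 7 genes of processing and turnover, and 0 of 7 transcription, 0 of 1 costimulation and 0 of 5 class I genes.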

How the data were processed

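The authors deposited raw UMI counts per gene and barcode for 3 single-nuclei libraries (10x 3′ chemistry), which per the submitters' processing notes were made with Cell Ranger 7.0.1 on mm10. Whether introns were counted or free RNA removed is not given in the sources used here. The libraries held 77617520 (ND), 73942732 (STZ-HFHC 1) and 72934861 (STZ-HFHC 2) UMIs in 9424, 9923 and 11642 barcodes. The limits the study states were applied (200 to 5000 genes, mitochondrial share up to 5%).

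Nuclei were clustered in Scanpy 1.11.5 (2000 variable genes, 30 components, 15 neighbours, Leiden resolution 1), without 11 class II genes, and the 5184 immune nuclei again within each group. A cluster was named when at least 3 markers and 33.3% of a list were raised at least 2-fold over their median in the other clusters, in at least 5% of its nuclei. It stayed unnamed when another list reached 50% or when genes of another class or 5 mitochondrial genes were in its top 10. Hepatocyte clusters were named in a second step at 1.2-fold. This rule was set after the clusters had been seen. Scrublet called 1 doublet in all, so it had not worked, and the top 8% of scores were removed only as an alternative.

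Counts were summed per library and class (at least 20 nuclei) and fitted in edgeR 4.0.16 (R 4.3.3) with the mouse as a block. The classes of a library come from 1 mouse, and the deviations of sums from 1 library correlated at 0.348 on average, against −0.194 between libraries. With 1 ND mouse, STZ-HFHC was compared with ND by size only: a log2 ratio of at least 1 in both mice, 0.5 added to each count, and at least 50 UMIs. Intervals are Poisson or binomial (95%), cover counting error only, and the limit for a count of 0 is 3 counts. Libraries are separate mice. The edgeR step, tested on simulated data, recovered 70% of 4-fold changes in dendritic-like against hepatocyte-like nuclei (9410 genes). Named genes were the 8 members, the 10 genes most like the mean of 4 of them, the 5 most like Ciita and H2-Ob each, and the members of 45 listed pathway genes that passed a test. The members and lists were chosen with earlier results of these data known. Alternatives were DESeq2 (PyDESeq2 0.5.4), no block, other filters, depths and resolution, and each mouse left out.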

Additional observations from a re-analysis of the deposited data

Results flagged for a closer look

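H2-DMb1, the beta chain of the H2-DM exchanger, was lower in both STZ-HFHC mice than in the ND mouse in dendritic-like nuclei and higher in both in the 5 other named classes with at least 20 of its UMIs. Its mean log2 ratio to ND was −0.97 in dendritic-like nuclei (38 UMIs in all) and 2.85 in B cell-like nuclei (31 UMIs), 3.83 apart. The gap from dendritic-like nuclei was 1.87 in macrophage-like (85 UMIs), 1.77 in endothelial-like (41 UMIs), 2.15 in stellate-like (29 UMIs) and 2.46 in hepatocyte-like nuclei (79 UMIs). H2-Ob, the beta chain of the H2-DM inhibitor, was lower than ND in both mice in B cell-like nuclei (−0.69, 46 UMIs) and stellate-like nuclei (−0.76, 23 UMIs), and higher in hepatocyte-like nuclei (0.89, 38 UMIs), which stood 1.58 and 1.65 above them. On fewer than 20 UMIs each, H2-Ob was also below ND in both mice in dendritic-like (−1.05), macrophage-like (−0.97) and T or NK cell-like nuclei (−0.72). These differences between classes were not tested. The B cell markers of B cell-like nuclei also ranged from 1830 to 6153 CPM over the libraries, and their part was not tested. They rest on 1 ND mouse, on few UMIs and, for H2-DMb1, on a split of counts with H2-DMb2 that is uncertain.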

How the results depend on the processing

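Among the summary values 169 were unchanged by the criteria used and 43 moved, where a count within 1.5 times of the main one was taken as unchanged. Of the values of single genes 595 were unchanged and 27 moved. The call of size against ND was gained by 15 of them and lost by 31. Of the 69 class differences called in 14 contrasts, 36 were called without the mouse as a block. Without this replicate block the count of members was 3 in T or NK cell-like, 2 in plasmacytoid dendritic-like and 0 in endothelial-like, stellate-like, cholangiocyte-like and mesothelial-like against hepatocyte-like nuclei, 1 in dendritic-like against B cell-like and 2 in dendritic-like against macrophage-like nuclei. The block moved no other contrast's count by over 1.5 times. In cholangiocyte-like nuclei the count of 1 became 3 with DESeq2 and 2 with high doublet scores removed or with sums of at least 50 nuclei. With at least 50 nuclei it was 0 in mesothelial-like nuclei and 2 in B cell-like against macrophage-like nuclei. At clustering resolution 2 it was 4 in stellate-like nuclei, 0 in mesothelial-like nuclei and 3 in monocyte-like against macrophage-like nuclei.

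With 1 mouse left out at a time, the 69 calls became 51 to 68. The counts were 7 to 7 in dendritic-like, B cell-like and macrophage-like, 5 to 6 in monocyte-like and stellate-like, 4 to 6 in endothelial-like, 3 to 7 in T or NK cell-like, 2 to 6 in plasmacytoid dendritic-like, 0 to 2 in cholangiocyte-like and 0 to 1 in mesothelial-like against hepatocyte-like nuclei. They were 3 to 5 in dendritic-like against B cell-like, 5 to 6 in dendritic-like against macrophage-like and 1 to 2 in B cell-like against macrophage-like nuclei. Of the 8 members 5 were highest in dendritic-like nuclei, and 6 when either STZ-HFHC mouse was left out, since H2-DMb1 joined them.

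The 17 calls of size against ND within named classes became 9 with the hepatocyte-like level subtracted, 3 after thinning to 1000 UMIs, 10 at resolution 2 and 0 at a log2 ratio of 2, where macrophage-like nuclei had 0 and all nuclei 1. Hepatocyte-like nuclei held 4 of the 17 calls and were not compared in the subtraction. Macrophage-like nuclei held 3 and were not compared at resolution 2. Thinning leaves fewer UMIs and so fewer genes past the minimum, and the causes of the other changes were not tested. Over all nuclei 3 members were called without the unnamed nuclei, a count given without the share of all genes. With an STZ-HFHC mouse left out the 17 became 13 to 22, with 0 to 2 in dendritic-like, 2 to 6 in macrophage-like and 6 to 6 over all nuclei. The mean share of nuclei with a UMI of any member was 81.1% in dendritic-like, 53.7% in B cell-like and 18.5% in hepatocyte-like nuclei without thinning, and 51.9%, 27.1% and 1.52% at 500 UMIs. The macrophage-like comparison with ND at resolution 2 was not run because 0 ND nuclei were named there. Depth limited H2-Ob and H2-DMb1 most, with 240 and 514 UMIs in all.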
